A study of Mus musculus with 6 samples.

Results

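The cytochrome P450 genes of families 2, 3 and 4 were described in RNA from whole mouse ovaries. Members were chosen by symbol, as every row named Cyp2, Cyp3 or Cyp4 followed by a subfamily letter and a gene number, and 73 of the 46078 rows in each table (0.158%) qualified, all of them annotated as protein-coding. Another 20 rows that carry a suffix, such as pseudogenes and lettered copies, did not meet the rule and none of them reached an RPKM of 1. Ovaries were from C57BL/6 mice aged 8 to 9 weeks, 3 libraries from controls and 3 from mice given cyclophosphamide (CTX), and the labels name no other agent or allele. The labels give neither dose, route, time after treatment nor cycle stage. They also do not say whether each library is a different animal or a pool, and every p-value therefore reflects the spread of these libraries alone, which may be technical. Values are RPKM, read numbers scaled to exon length and library size, and sets of 3 values follow the library numbers.

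P450 enzymes are heme proteins that insert an oxygen atom into fat-soluble molecules, and most of those in families 2 to 4 sit in the endoplasmic reticulum and take electrons from P450 reductase. Families 2 and 3 are best known from the liver, where they clear drugs, and family 4 mainly oxidizes the ends of fatty acids and of signalling lipids such as leukotrienes. Cyclophosphamide is a prodrug: P450 enzymes hydroxylate its ring, the product opens to aldophosphamide, and this breaks down into the alkylating phosphoramide mustard and acrolein. In humans the enzymes that carry out the first step are mainly of subfamilies 2B, 2C and 3A, with a part for 2A, so the mouse genes of subfamilies Cyp2a, Cyp2b, Cyp2c and Cyp3a were taken as the group that could activate the drug locally.

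The depth read from the steps of the low values was 15810000 to 16760000 reads in control and 17160000 to 22130000 in CTX, so that 1 RPKM of a gene of 1 kilobase stands for 15.8 to 22.1 reads. All 10 granulosa cell markers and all 10 oocyte markers, which define an ovary, reached an RPKM of 1. The libraries did not divide by treatment alone. Summed RPKM over 10 luteal cell markers was 7775, 8467 and 4117 in control against 9915, 3167 and 3037 in CTX. Control 3 thus stood with CTX 2 and 3, and CTX 1 with controls 1 and 2. In whole-organ RNA, fewer cells of a type and less RNA per cell cannot be told apart.

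No gene of the subfamilies taken here as able to activate cyclophosphamide (Cyp2a, Cyp2b, Cyp2c and Cyp3a) reached an RPKM of 1. Whether members of other subfamilies act on the drug was not examined, and 16 of those, among them Cyp2j6 and Cyp2j9, did reach an RPKM of 1. The group taken as able to activate it has 31 members (4 in Cyp2a, 5 in Cyp2b, 15 in Cyp2c and 7 in Cyp3a). Its highest single value was 0.28 RPKM, for Cyp2c55 in control 1, which is about 9 reads. Of its 186 values 150 were 0, and 18 members were at 0 in every library. The summed RPKM of all 31 genes was 0.44, 0.28 and 0.15 in control against 0.11, 0.46 and 0.58 in CTX, and the groups overlapped.

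Among the members at 0 in all 6 libraries were Cyp2b10, the phenobarbital-inducible liver enzyme of its subfamily, and Cyp3a11, the main drug-oxidizing Cyp3a enzyme of mouse liver. A count of 0 allows up to 3 reads in a library, which is an RPKM of up to 0.0642 to 0.0899 for Cyp2b10 and up to 0.0266 to 0.0373 for Cyp3a11. Over the 31 genes that limit ran from 0.0266 to 0.111, and it covers counting error only. The highest members by subfamily were Cyp2a22 with 0.02 RPKM in CTX 2 and 0 elsewhere, Cyp2b23 with at most 0.11, Cyp2c55 with at most 0.28 and Cyp3a13 with at most 0.08. Only 7 of the 186 values stood for more than 3 reads.

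Genes of these subfamilies are close copies, and the sources used here do not say how the authors treated reads that match several genes. Of the stretches of 31 bases in each gene's transcript with the longest coding sequence, a median of 60.6% occurred in no other gene across the 31 members. Cyp2b10 had 77.5% such stretches and Cyp3a11 66.2%. Cyp2c40 had 15.5%, the lowest of the 73 members. Shares below 50% were also found for Cyp2c67 (32.37%), Cyp2c69 (34.1%), Cyp2c68 (37.96%), Cyp2a4 (41.1%) and Cyp2a5 (41.45%). In all of these genes a loss of shared reads and a low level cannot be told apart. At least 50% of the stretches were found in no other gene in 25 of the 31 members.

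**Figure D1:**
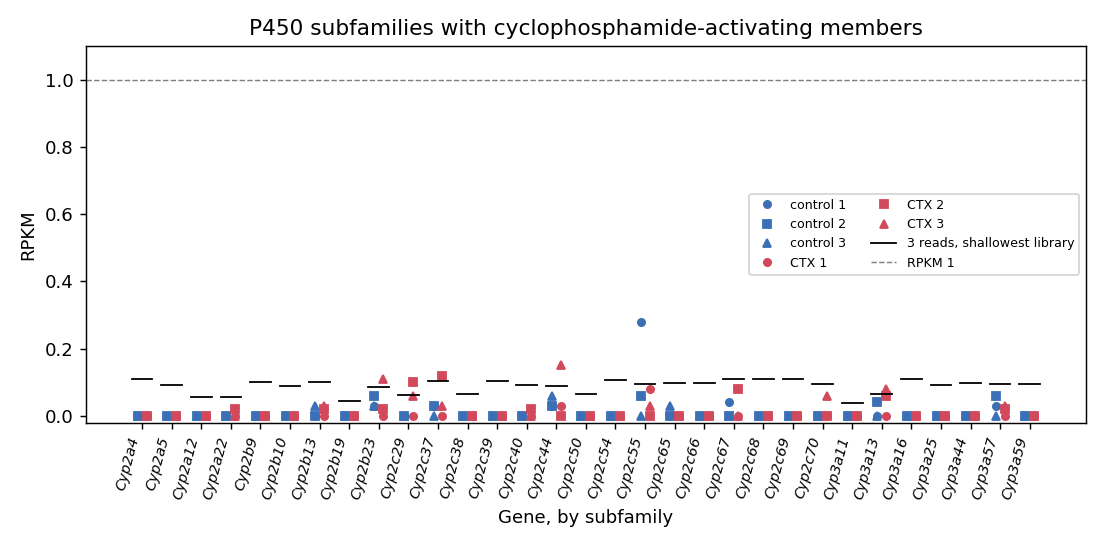
RPKM of the 31 genes of subfamilies Cyp2a, Cyp2b, Cyp2c and Cyp3a (horizontal axis) in 3 control and 3 CTX libraries (points, which overlap at 0), on a linear vertical axis. The short black lines mark what 3 reads are worth in the shallowest library, the dashed line marks an RPKM of 1, and the highest point is Cyp2c55 at 0.28 in control 1.

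Liver RNA, which is rich in these enzymes, was checked through 8 hepatocyte markers. The albumin gene Alb was at most 0.11 RPKM, and Fgb and Ttr were at 0 in every library. Apoa1, the apolipoprotein gene, was the only 1 of the 8 above an RPKM of 1, with 7.75 to 24.6 in control and 9.01 to 41.7 in CTX.

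Outside those subfamilies, 16 genes reached an RPKM of 1 in at least 1 library, which is 21.9% of the 73 members where 60.8% of all protein-coding genes did so. They were 7 of 25 other Cyp2 genes (Cyp2d22, Cyp2e1, Cyp2j6, Cyp2j9, Cyp2s1, Cyp2t4 and Cyp2u1) and 9 of 17 Cyp4 genes (Cyp4b1, Cyp4f13, Cyp4f14, Cyp4f15, Cyp4f16, Cyp4f17, Cyp4f18, Cyp4f39 and Cyp4v3). Of these, 12 had a mean over the 6 libraries of at least 1, and the same number reached 1 in at least 3 libraries and entered the test. Just inside the threshold lay Cyp4f15 with a highest value of 1.06 and Cyp2t4 with 1.14, and just outside it Cyp2r1, the vitamin D hydroxylase of the liver, with 0.42 to 0.73 and Cyp2f2, an enzyme of airway cells, with 0.05 to 0.64. Of the other members 31 were at 0 in every library and 26 had some value but never reached 1.

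**Figure D2:**
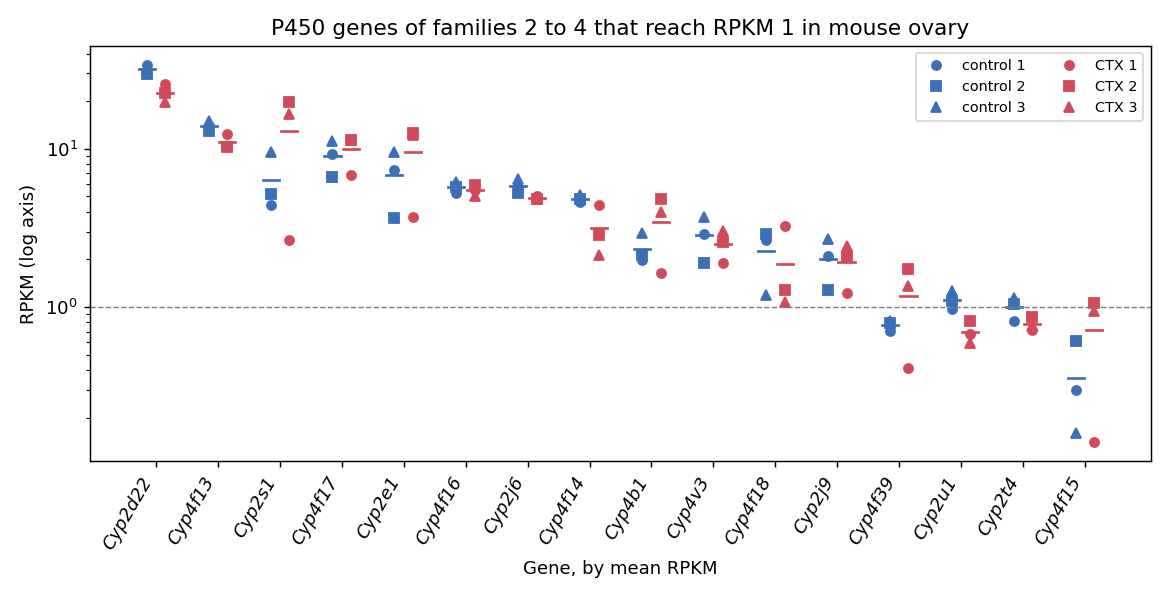
RPKM (log vertical axis) of the 16 genes that reached an RPKM of 1 in at least 1 library, ordered by mean, with 1 symbol per library and short lines at the group means. Control libraries are blue and CTX libraries red, and the blue points of Cyp2d22 (29.9 to 34.0) lie above its red points (19.7 to 25.8).

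The heme of a P450 is held by a cysteine in a short loop near the end of the protein. Each of the 73 genes had a coding sequence that held this loop once, found by translating the GENCODE transcripts (release M21, on GRCm38, the assembly of mm10) and searching for phenylalanine or tyrosine, then glycine, arginine, cysteine and a final glycine, alanine or aspartate in their fixed spacing over 10 codons. It was read from the longest coding sequence of each gene except Cyp2b10, where another transcript was used. The 30 coding bases of the loop are printed here because they show how alike the expressed copies are, with the cysteine codon in capitals. The sequences include those of the 4 genes, among the 12 tested, whose groups did not overlap (Cyp2d22, Cyp2j6, Cyp4f13 and Cyp4f14). The others are Cyp2b10 and the pair Cyp4f16 and Cyp4f17, whose whole coding sequences were the most alike among the 16 expressed genes, the only ones aligned.

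Cyp2b10: ttctcaacaggaaagcgcattTGTcttggt
Cyp2d22: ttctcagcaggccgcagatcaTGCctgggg
Cyp2j6: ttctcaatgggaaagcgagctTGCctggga
Cyp4f13: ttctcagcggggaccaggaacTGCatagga
Cyp4f14: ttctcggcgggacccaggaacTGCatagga
Cyp4f16: ttttctgccgggcccaggaacTGCatagga
Cyp4f17: ttttctgctgggcctaggaacTGCatagga

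In all 16 expressed genes the loop is split by the last intron, so its coordinates enclose that intron. They are chr15:82371706-82371831 for Cyp2d22, chr4:96518186-96523712 for Cyp2j6, chr17:32924942-32925340 for Cyp4f13 and chr17:32905666-32906065 for Cyp4f14, all on the minus strand. They are chr17:32550798-32551068 for Cyp4f16, chr17:32528342-32528729 for Cyp4f17 and chr7:25917420-25926087 for Cyp2b10, on the plus strand. The loops of Cyp4f16 and Cyp4f17 differed at 2 of 30 bases and those of Cyp4f13 and Cyp4f14 at 3, while those of Cyp2d22 and Cyp2j6 differed at 11. Over whole coding sequences the identity was 84.3% for Cyp4f16 with Cyp4f17, 84.1% for Cyp4f13 with Cyp4f17 and 82.6% for Cyp2j6 with Cyp2j9. Cyp4f16 had the lowest share of stretches of 31 bases found in no other gene among the expressed members (61.5%), and Cyp2s1 and Cyp2t4 had 100%.

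CTX was compared with control on log2(RPKM + 1), a scale that understates changes of low genes. Limma called 0 of the 12 tested members at a Benjamini-Hochberg adjusted p under 0.05, where it called 0 of all 14535 genes tested (0%). At an unadjusted p under 0.05 there were 3 members, all lower in CTX, beside 3.45% of all genes, of which 2.29% were lower and 1.16% higher (as shares of all genes). Among the 12 tested members the log2 fold change (CTX minus control) was below 0 in 8 and above 0 in 4, with a median of −0.09 beside −0.0053 over all genes. In 4 members (Cyp2d22, Cyp4f13, Cyp4f14 and Cyp2j6) every CTX library lay below every control library, and in 0 every CTX library lay above, while 8.83% of all genes were separated, 5.5% downward and 3.32% upward. After scaling the libraries by a trimmed mean or by quantiles, Cyp2d22 alone kept that separation, which is 1 of 12 beside 9.91% and 9.45% of all genes in either direction, a share near the background.

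**Figure D3:**
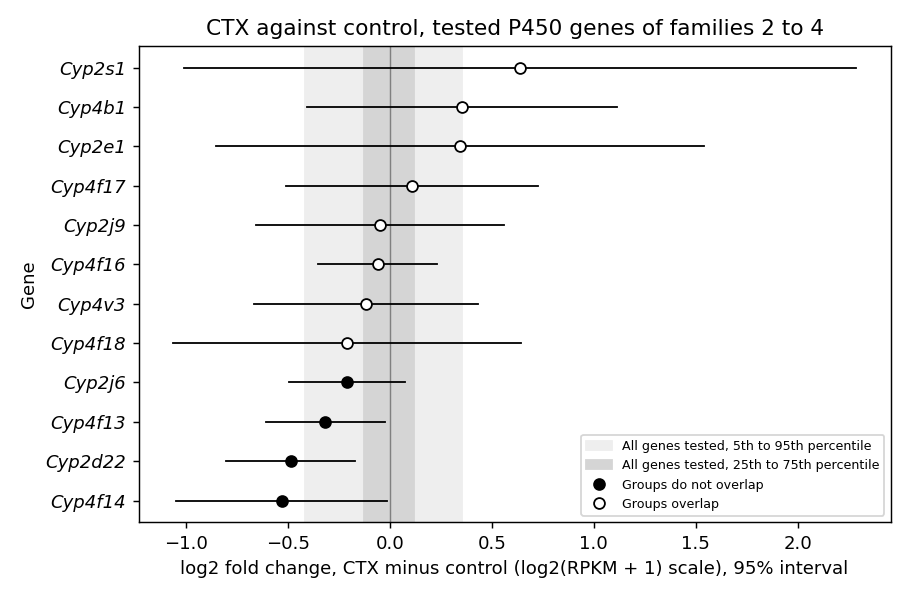
Log2 fold changes (CTX minus control) on the log2(RPKM + 1) scale for the 12 tested genes, with limma's 95% intervals as lines and filled points where the groups do not overlap. Grey bands show the 25th to 75th percentile (−0.13 to 0.12) and the 5th to 95th percentile (−0.42 to 0.36) of all genes tested, and the filled points are Cyp2j6, Cyp4f13, Cyp2d22 and Cyp4f14.

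Cyp2d22, of the subfamily of the human drug-metabolizing enzyme CYP2D6, had the highest mean of the 73 members. It lies on chromosome 15 (82370527 to 82380260, minus strand). Its RPKM was 33.97, 29.88 and 32.11 in control against 25.84, 22.43 and 19.7 in CTX. The control mean was 1.41 times the CTX mean, and the groups did not overlap. The log2 fold change was −0.49 ± 0.13 (SE), with a 95% interval of −0.80 to −0.17, an unadjusted p of 0.00912 and a limma adjusted p of 1.00. Its values stood for about 1321 to 2104 reads per library. It was lower in CTX, without overlap, under all 14 alternative settings, and none gave an adjusted p under 0.145.

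Cyp2s1, a P450 of epithelial tissues, varied most between libraries among the tested members. Its RPKM was 4.41, 5.16 and 9.56 in control against 2.65, 19.68 and 16.64 in CTX. CTX 1 was the lowest of all libraries and CTX 2 and 3 were the highest, so the groups overlapped. The log2 fold change was 0.64 ± 0.68 (SE), with an interval of −1.01 to 2.29 and a limma adjusted p of 1.00. With 1 library left out it ran from 0.18 (without CTX 2) to 1.44 (without CTX 1, limma adjusted p 0.174), and it was 0.30 without CTX 3. The gene lies on chromosome 7 (25802475 to 25816913, minus strand), and 260 of its 4938 exonic bases are shared with Gm26707 on the opposite strand, which was at most 0.32 RPKM.

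Cyp2e1, the ethanol-oxidizing P450 that also acts on small solvents, is on chromosome 7 (140763739 to 140774987, plus strand). It had 7.36, 3.66 and 9.55 RPKM in control against 3.71, 12.6 and 12.16 in CTX. Control 2 and CTX 1 were low and CTX 2 and 3 high, and the groups overlapped. Its log2 fold change was 0.35 ± 0.50 (SE), with an interval of −0.85 to 1.54. It was 0.85 without CTX 1 (limma adjusted p 0.308), but 0.0084 without control 2, 0.083 without CTX 2 and 0.11 without CTX 3.

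Cyp2j6 and Cyp2j9 belong to a subfamily that oxidizes arachidonic acid to signalling lipids, and both lie on the minus strand of chromosome 4 (96516138 to 96553661 and 96568429 to 96591578). Cyp2j6 had 5.77, 5.24 and 6.41 RPKM in control against 5, 4.82 and 4.79 in CTX. The gap between the lowest control and the highest CTX library was small, and it closed after either rescaling of the libraries. Its log2 fold change was −0.21 ± 0.12 (SE), with an interval of −0.49 to 0.07. Cyp2j9 had 2.11, 1.28 and 2.69 in control against 1.22, 2.1 and 2.43 in CTX, with groups that overlapped and a log2 fold change of −0.05 ± 0.25 (SE).

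Cyp2u1 and Cyp2t4 stayed near an RPKM of 1 and did not enter the test. Cyp2u1, which hydroxylates long-chain fatty acids, had 0.97, 1.09 and 1.26 in control against 0.68, 0.82 and 0.59 in CTX, without overlap. With no filter on low values its log2 fold change was −0.31 and its limma adjusted p 0.979. The antisense gene 4930534D22Rik covers 548 of its 5242 exonic bases and was at most 0.13 RPKM. Cyp2t4 had 0.82, 1.05 and 1.14 in control against 0.72, 0.86 and 0.76 in CTX, and its groups overlapped.

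The Cyp4f genes made up 7 of the 9 expressed Cyp4 genes. Cyp4f13, Cyp4f14, Cyp4f15, Cyp4f16, Cyp4f17 and Cyp4f39 lie in a cluster on chromosome 17, within 32452723 to 32947402. Cyp4f13 was the highest, with 13.86, 12.89 and 15.04 RPKM in control against 12.35, 10.24 and 10.46 in CTX. All CTX libraries lay below all controls, CTX 1 least so. The log2 fold change was −0.32 ± 0.12 (SE), with an interval of −0.61 to −0.02, an unadjusted p of 0.0392 and a limma adjusted p of 1.00.

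Cyp4f14, which hydroxylates leukotrienes, showed the most negative fold change of the tested members. It had 4.62, 4.79 and 5.1 RPKM in control against 4.45, 2.84 and 2.15 in CTX. CTX 1 lay just below the lowest control and CTX 2 and 3 well below, and the control mean was 1.54 times the CTX mean. The log2 fold change was −0.53 ± 0.21 (SE), with an interval of −1.05 to −0.01, an unadjusted p of 0.0462 and a limma adjusted p of 1.00. With 1 library left out it ran from −0.75 (without CTX 1, limma adjusted p 0.145) to −0.35 (without CTX 3).

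Cyp4f16 had 5.29, 5.72 and 6.2 RPKM in control against 5.5, 5.88 and 5.01 in CTX, the narrowest spread of the Cyp4f genes that were tested. Its log2 fold change was −0.06 ± 0.12 (SE), with an interval of −0.35 to 0.23. Its neighbour Cyp4f17 had 9.27, 6.66 and 11.29 in control against 6.84, 11.43 and 11.45 in CTX, low in control 2 and CTX 1, with a log2 fold change of 0.11 ± 0.25 (SE). Neither gene's groups were separated.

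Cyp4f18, the leukotriene hydroxylase of neutrophils, went the other way between libraries. It had 2.67, 2.89 and 1.19 RPKM in control against 3.27, 1.28 and 1.08 in CTX, and its log2 fold change was −0.21 ± 0.35 (SE). That value ran from −0.53 without CTX 1 to −0.014 without CTX 3. The gene lies on chromosome 8 (71988482 to 72009626) and shares 181 of its 1855 exonic bases with Zfp961 on the opposite strand, which had 5.29 to 6.92 RPKM. The strand setting of the counting is not given, so reads of the shared stretch cannot be told apart.

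Cyp4f39, which makes very long hydroxy fatty acids for the skin barrier, had 0.71, 0.79 and 0.82 RPKM in control against 0.41, 1.74 and 1.36 in CTX. Cyp4f15 had 0.3, 0.61 and 0.16 in control against 0.14, 1.06 and 0.95 in CTX. In both genes CTX 1 was the lowest library and CTX 2 the highest, but in Cyp4f15 CTX 1 and control 3 each stood for about 6 reads. Neither gene entered the test.

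Cyp4b1, which oxidizes fatty acids and activates certain plant toxins, is on chromosome 4 (115624725 to 115647723). It had 1.98, 2.12 and 2.93 RPKM in control against 1.64, 4.79 and 3.99 in CTX. CTX 1 again lay below all controls and CTX 2 and 3 above them. The log2 fold change was 0.35 ± 0.31 (SE), with an interval of −0.40 to 1.11, and it ran from 0.13 without CTX 2 to 0.70 without CTX 1. Cyp4v3, the counterpart of a human fatty acid hydroxylase mutated in a retinal dystrophy, had 2.9, 1.89 and 3.73 in control against 1.91, 2.59 and 3.01 in CTX, a log2 fold change of −0.12 ± 0.23 (SE). The Cyp4a genes, which PPARA switches on in liver, stayed at or below 0.23 RPKM in all 5 members, with Cyp4a14 the highest. In the other subfamilies the highest of the members that never reached 1 were Cyp2d26 at 0.32, Cyp2j12 at 0.12, Cyp2w1 at 0.08, Cyp2ab1 at 0.03 and Cyp4f40 at 0.03, and the single Cyp2g and Cyp4x genes were at 0 in every library.

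Cell type markers moved with several of these genes. The 10 adipocyte markers, all of which reached an RPKM of 1, summed to 48.4, 47.2 and 192 RPKM in control against 62.7, 261.9 and 245.6 in CTX. The hormone gene Adipoq was at 0.27, 0 and 13.3 in control against 0.08, 17.3 and 15.5 in CTX. Lipe and Pnpla2 of that list did not follow its sum. Lipe had 14.08, 14.96 and 9.42 in control against 18.88, 10.28 and 9.59 in CTX. Pnpla2 had 24.31, 25.75 and 23.03 against 35.69, 26.78 and 24.69. Cyp2s1, Cyp2e1, Cyp4b1, Cyp4f17 and Cyp4f39 had their 3 highest values in the libraries where the adipocyte sum was high (control 3, CTX 2 and CTX 3).

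Granulosa cell markers summed to 1487 to 3651 RPKM in control and 972 to 3249 in CTX, with the same 3 libraries high. Inhbb and Foxl2 of that list did not follow its sum. Inhbb had 92.61, 80.34 and 255.08 in control against 20.26, 69.04 and 71.07 in CTX. Foxl2 had 90.34, 91.09 and 90.93 against 78.94, 93.99 and 93.47. Cyp4f18 had its 3 highest values in controls 1 and 2 and CTX 1, the libraries with the highest luteal sums. Macrophage and endothelial sums were highest in these 3 libraries too, the endothelial sum narrowly (112.52 in control 1, 110.54 in control 3). Lyz2 made up most of the macrophage sum (317.89 of 433.45 RPKM in control 1). Lyz2 and Cd68 were higher in each of these libraries than in the others, while C1qa, Csf1r, Adgre1 and Mrc1 were not. Among endothelial markers Pecam1 and Kdr followed the sum, while Cdh5, Cldn5, Tek and Emcn did not. Of 6 oviduct epithelium markers 2 reached an RPKM of 1, with sums of 5.24 to 10.97 in control and 4.61 to 17.5 in CTX, and the ciliary gene Foxj1 was at most 0.21. The 6 macrophage markers all reached 1, with sums of 277 to 433 in control and 275 to 398 in CTX. The ovary's surface was represented by 8 markers of its epithelium and of mesothelium, which summed to 59.3 to 82.4 RPKM in control and 36.8 to 65.3 in CTX. Of those, 4 (Upk1b, Msln, Krt7 and Muc16) had every CTX library below every control library, where 5.5% of all genes did. So did 1 of 10 granulosa markers (Inhbb), 1 of 6 endothelial markers (Tek) and 1 of 6 macrophage markers (Csf1r). Log2 fold changes were below 0 in 5 of the granulosa, 5 of the endothelial and 4 of the macrophage markers. Separated upward were 1 of 6 theca markers (Insl3) and 1 of 4 tested erythroid markers (Hbb-bt), where 3.32% of all genes were.

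The 6 theca and interstitial markers summed to 891 to 1407 RPKM in control and 758 to 1730 in CTX, and the 10 oocyte markers to 138 to 324 and 99.2 to 372. Endothelial markers (6 of 6 reaching 1) summed to 111 to 120.3 and 87.8 to 115, and erythroid markers (5 of 6) to 18.4 to 27.2 and 21.8 to 75.5. The most abundant marker of each list was Hsd3b1 (luteal), Inha (granulosa), Aldh1a1 (theca), Padi6 (oocyte), Cfd (adipocyte), Apoa1 (hepatocyte), Wt1 (surface), Tppp3 (oviduct), Cldn5 (endothelial), Lyz2 (macrophage) and Hbb-bs (erythroid). The part of these cell types in the P450 values was not tested.

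**Figure D4:**
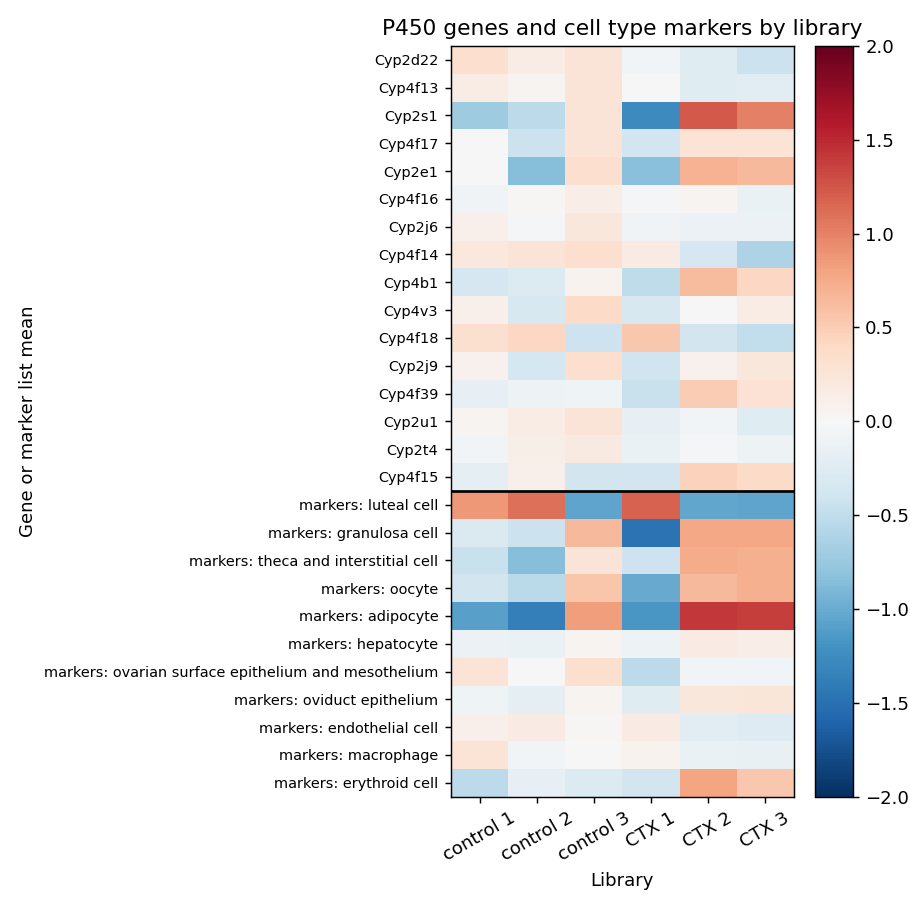
Deviation of log2(RPKM + 1) from the mean of the 6 libraries (colour, limits −2 to 2, largest deviation 1.48) for the 16 expressed genes, ordered by mean level, and for the mean of each cell type marker list under the line. Columns are the libraries. Cyp2s1 is red in control 3, CTX 2 and CTX 3, as is the adipocyte list, and the luteal list is red in controls 1 and 2 and CTX 1. The granulosa, theca and oocyte lists also lie above their means in control 3, CTX 2 and CTX 3.

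Partner genes of the P450 system were measured at far higher levels than most members. Of 6 electron partners all were tested and 0 were called in either direction. The most abundant were Pgrmc1, a heme-binding protein that associates with P450s, with 159 to 209 RPKM in control and 164 to 178 in CTX, and the cytochrome b5 gene Cyb5a with 140 to 152 and 132 to 180. Por, the reductase that all microsomal P450s need, had 30.88, 24.1 and 31.43 in control against 25.18, 25.83 and 24.3 in CTX (log2 fold change −0.18 ± 0.13 SE, limma adjusted p 1.00; named after its values were seen).

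Of 12 genes of heme synthesis and breakdown 12 were tested and 0 called. Alas1, the rate-limiting enzyme of heme synthesis, had 102.96, 52.42 and 57.19 RPKM in control against 51.07, 48.34 and 46.55 in CTX. Control 1 stood apart, and the highest CTX library lay just under the lowest control. Its log2 fold change was −0.47 ± 0.26 (SE, limma adjusted p 1.00). Over the list 5 log2 fold changes were below 0 and 7 above, with a median of 0.05. The groups did not overlap in Alas1 and in Fech, the last enzyme of the pathway, both lower in CTX, which is 2 of 12 beside 5.5% of all genes.

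Among 12 regulators of P450 genes 8 were tested and 0 called. Nr1i2 and Nr1i3, the drug-sensing receptors PXR and CAR that switch on Cyp2b, Cyp2c and Cyp3a genes in liver, were at most 0.21 and 0.19 RPKM, and the liver factor Hnf4a at most 0.05 (named after their values were seen). The most abundant were the receptor partner Rxrb, with 16.6 to 21.5 in control and 19.1 to 22.2 in CTX, and Arnt, the partner of the dioxin receptor, with 12.9 to 16.5 and 9.93 to 16.1.

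Of 4 epoxide hydrolases, which open the epoxides that P450s form, 2 were tested and 0 called. Ephx2, the soluble enzyme that acts on epoxides of arachidonic acid, had 600.5, 644.3 and 207 RPKM in control against 917, 183.9 and 182.9 in CTX. It was high in the libraries with high luteal sums, and its log2 fold change was −0.46 ± 0.75 (SE). Ephx1, the microsomal enzyme, had 77.6 to 106 in control and 61.4 to 123 in CTX. Of 9 genes that oxidize or conjugate cyclophosphamide metabolites 8 were tested and 0 called. Aldh1a1, which oxidizes aldophosphamide to an inactive acid, had 816 to 1218 in control and 643 to 1366 in CTX, and the glutathione transferase gene Gstm1 had 240.2 to 389.9 and 198 to 423.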

How the data were processed

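RNA of whole ovaries was sequenced in 3 control and 3 CTX libraries. Per the labels' protocols, frozen tissue was extracted with Trizol and libraries were made with a TruSeq kit. Bowtie 0.12.2 and mm10 are named in the submitters' processing notes, while the sources used here do not name the counter, annotation, strand use or treatment of multiply matching reads. The authors deposited 1 value per gene and library, with 2 decimals and no stated unit. The deposited values were taken as RPKM that the authors had scaled to exon length and depth, inferred from the steps between low values: multiplied by length and depth, 97.7 to 98.1% of the values worth 15 reads or fewer, in genes up to 1000 exonic bases, fell within 0.2 of whole reads. Depths and read numbers in the text come from that step and from GENCODE M21 exon lengths. Rounding loses whole reads in long genes, so no count model was used.

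The fit covered the 14535 genes that reached an RPKM of 1 in 3 or more libraries, as log2(RPKM + 1), in limma 3.58.1 (R 4.3.3) with a mean-variance trend, and p-values were adjusted by Benjamini-Hochberg over all of them; the fit was tested on simulated data. Tests are two-sided. Members and gene lists were chosen with earlier results of these data known. Each member that reached an RPKM of 1 in any library was named, with the 2 most abundant genes of each partner list and the highest member of each low subfamily. One gene that this rule names is not reported here. Coding sequences were aligned with Biopython 1.88. Alternatives were 2 scalings, no variance trend, other filters and pseudocounts (0.1 and 0.5), a replicate block, and each library left out.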

Additional observations from a re-analysis of the deposited data

How the results depend on the processing

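The count of genes called by limma was 0 in the 8 alternatives that kept all libraries (trimmed mean scaling, quantile normalization, no variance trend, no filter, only genes averaging an RPKM of 5, pseudocounts of 0.1 and 0.5, and the replicate block, which gave 0 genes and 0 members). It ran from 0 to 5 with 1 library left out, and the 5 came without CTX 1. The count of members called was 0 in all 14. The count of members whose groups did not overlap was 4 of 12, beside 8.83% of all genes. It fell to 1 with trimmed mean scaling (9.91% of all genes) and to 1 with quantile normalization (9.45%). With no filter it was 5 of 42 (7.37%), and with a mean RPKM of at least 5 it was 3 of 7 (8.8%). With 1 library left out it ran from 4 to 8, while the share of all genes ran from 11.6% to 39.8%. The 8 came without CTX 1, where Cyp2s1, Cyp2e1, Cyp4b1 and Cyp4f17 joined as higher and 39.8% of all genes were separated. The trimmed mean was computed without weights, so it is not the exact TMM of the usual software. Directions changed only with a library left out, in 3 members: Cyp2j9 ran from −0.24 to 0.14 (0.11 without control 3 and 0.14 without CTX 1), Cyp4f17 from −0.075 to 0.33 (negative without control 2, CTX 2 or CTX 3) and Cyp4v3 from −0.31 to 0.049 (0.049 without control 3 and 0.012 without CTX 1). The cause was not tested.

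Members with a mean RPKM at the threshold numbered 12, and 17 and 11 at thresholds of 0.5 and 2. Deviations from the group means correlated at 0.401, −0.54 and 0.598 across genes between libraries of replicate numbers 1, 2 and 3. Between libraries of different number the correlations ran from −0.66 (control 3 with CTX 1) to 0.614 (control 2 with CTX 1). Deviations within a group depend on each other, so these correlations cannot show whether libraries of the same number belong together. With 3 libraries a group, an exact permutation test of one gene cannot go below 0.1, and members under an RPKM of 1 rest on few reads.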

Other observations

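Among P450 rows of other families, 11 of 21 reached an RPKM of 1 in at least 1 library. Cyp1b1, which oxidizes polycyclic hydrocarbons and estrogens, was above every member of families 2 to 4 in every library, with 80.3, 74.03 and 93.7 RPKM in control against 57.4, 97.8 and 101.7 in CTX. Cyp1a1 and Cyp1a2, the other genes of its family, were at most 0.04 and at 0. The steroid enzyme gene Cyp11a1, which starts steroid synthesis in mitochondria, had 782 to 2148 RPKM in control and 801 to 2801 in CTX, against 77.3 to 111 for all 73 members of families 2 to 4 summed.

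Of the 20 rows left out for their suffix, the pseudogene Cyp4f41-ps was the highest at 0.94 RPKM in control 3, and 16 were at 0 in every library. Cyp2c53-ps reached 0.78 in CTX 2 and shares 142 exonic bases with Cyp2c29, whose highest value was 0.1 in the same library.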
